A study of Mus musculus with 26 samples.

Results

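Dorsal root ganglia hold the cell bodies of the sensory neurons whose axons run in the peripheral nerves, together with glia, vessels and immune cells. The comparison described here is that of Ahr conditional knockout (cKO) with control ganglia taken 1 day after sciatic nerve crush, and it rests on 6 of the 26 samples of the study, 3 per genotype, chosen by their labels. Each sample was the pooled L4 to L6 ganglia of 1 mouse. The cKO mice were labelled Ahr f/f Thy1-CRE(ERT2/EYFP), so that 2 floxed Ahr alleles were combined with a tamoxifen-inducible Cre recombinase and a yellow fluorescent protein under the Thy1 promoter, which is active in subsets of neurons. Control mice 1 and 2 were labelled Ahr fl/+ and control mouse 3 fl/fl, all without Cre. The series' design text gives tamoxifen to both genotypes, at 100 mg/kg a day for 5 days from 28 weeks of age, and surgery 5 weeks later, with dissociation of the ganglia 2 to 4 h after lights on. Glia, vessels and immune cells without Thy1 promoter activity keep the receptor in this model, and all cells of the ganglion were sequenced together.

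The aryl hydrocarbon receptor (AhR) is a transcription factor of the bHLH-PAS family that is held in the cytosol by chaperones until a small-molecule ligand binds. It then pairs with Arnt in the nucleus and binds DNA elements with the core GCGTG, next to genes of xenobiotic metabolism such as the cytochrome P450 Cyp1b1, and next to its own repressors Ahrr and Tiparp. After nerve crush, sensory neurons switch on a set of transcription factors and growth-associated genes, and the title of the series names axon regeneration as its subject.

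The receptor itself did not separate the genotypes downwards. Ahr (GRCm38 chromosome 12, 35497974 to 35535038, minus strand) was at 38.2, 38.7 and 36.2 CPM (each count divided by the TMM-scaled total of its library and brought to a common total) in the control mice and at 39.7, 40.5 and 38.8 CPM in the mice labelled cKO. All 3 cKO values thus lay just above the 3 control values, and the log2 fold change was 0.07 ± 0.09 (SE, n = 3 per group; edgeR adjusted p = 1.0, 95% interval -0.13 to 0.27). The counts cover the whole gene in all cells of the ganglion, the labels do not name the floxed exon, and a deletion in neurons is therefore not checked by them. Because the level of the targeted gene was not lower under the cKO label, "cKO" stands throughout for the libraries labelled so.

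Transcripts of Xist and of Y-linked genes went against the labelled sex in 2 of the 6 injured libraries. Control replicate 3, labelled male, had 338 counts of Xist and 2 of Y-linked genes, and cKO replicate 2, labelled female, had 0 of Xist and 1641 of Y-linked genes. Read this way, the 3 controls were female, and the cKO mice were 1 female (replicate 1) and 2 males (replicates 2 and 3). Sex and genotype are therefore partly confounded, and counts below are given for autosomal genes. Values without the 2 libraries are given for the calls, genes of smallest p, regeneration lists, potassium channels and blood cell markers. A range is given for the other pathway lists. Without the 2 libraries, female Ahr fl/+ controls 1 and 2 remain against cKO replicates 1 (female) and 3 (male), so the confounding stays. Among naive and injured libraries, males occur only as injured cKO replicates 2 and 3. A fit with sex by transcripts as a covariate therefore compares cKO replicate 1 alone with the injured controls. Total counts were 20169388 to 23540375 per injured library. Neuronal markers were abundant in every library, with a summed level of the 12 sensory neuron markers of at least 12907 CPM.

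In injured ganglia 2 autosomal genes differed between the libraries labelled cKO and control, 1 in each direction. Thy1, the neuronal surface glycoprotein whose promoter drives the Cre transgene, was higher in cKO, and Cadps, a protein that primes dense-core vesicles for release, was lower. Of 20476 autosomal genes tested these 2 were 0.00977%, and 549 had an unadjusted p under 0.05. The next smallest adjusted p was 1.0.

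Thy1 (chromosome 9, 44043384 to 44048579, plus strand) was at 757, 804 and 791 CPM in the control mice and at 1241.5, 1457.8 and 1358.2 CPM in the cKO mice. The groups were far apart, and each cKO value was above every control value. The log2 fold change was 0.79 ± 0.08 (SE; 95% interval 0.62 to 0.95), a 1.73-fold higher level (edgeR quasi-likelihood test, adjusted p = 0.00521). Cadps (chromosome 14, 12372563 to 12823079, minus strand) was at 372, 430 and 387 CPM in the control mice and at 230, 218 and 224 CPM in the cKO mice. The log2 fold change was -0.82 ± 0.09 (SE; 95% interval -1.01 to -0.64; adjusted p = 0.0059), so the level in cKO was 0.565 of that in control.

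Both calls depended on which libraries were used. Without the 2 libraries whose transcripts go against their labels, 2 mice per group were left and 0 autosomal genes were called by edgeR. Thy1 was then at 0.74 (adjusted p = 0.411) and Cadps at -0.82 (adjusted p = 0.465) on the log2 scale. With fewer mice in the fit, this loss of calls does not measure an effect of sex. With sex by transcripts as a covariate the values were 0.66 for Thy1 and -0.79 for Cadps, and these rest on cKO replicate 1 alone. Leaving out cKO replicate 3 also left 0 calls (Thy1 adjusted p = 0.0508, Cadps 0.0878), while without cKO replicate 2 or control replicate 2 Thy1 alone was called, and without cKO replicate 1 there were 4 calls, Rsrp1 and Zbtb16 in addition (named after their values were seen). The log2 fold change stayed between 0.66 and 0.84 for Thy1 and between -0.87 and -0.76 for Cadps in every alternative fit.

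**Figure D1:**
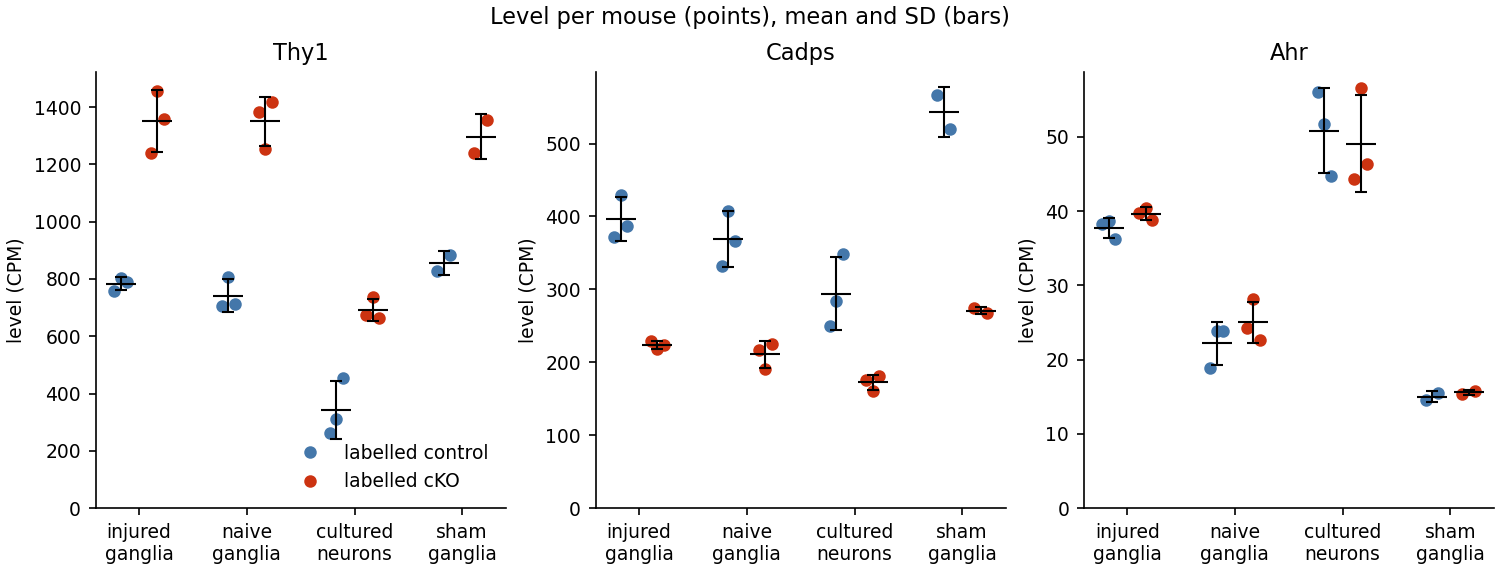
Level of Thy1, Cadps and Ahr (CPM, linear axis from 0) in each mouse labelled control (blue) or cKO (red), in injured ganglia, naive ganglia, cultured neurons and sham ganglia; bars give the mean and SD. Thy1 was higher and Cadps lower in every cKO mouse than in every control mouse of the same setting, and Ahr was not lower in cKO injured ganglia (38.8 to 40.5 CPM) than in control (36.2 to 38.7 CPM).

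The same 2 genes differed in the mice of the other experiments, which share no library with the injured comparison, although naive and injured libraries were fitted in 1 model and share its estimate of the spread. Those cKO mice carried the same alleles and transgene. The naive mice, which had no surgery, were female, with control mice 1 and 2 labelled Ahr fl/+ and control mouse 3 fl/fl. The cultured neurons were semi-purified from female mice and kept 24 h after seeding, with all 3 controls Ahr fl/fl. The sham mice were male and were taken 1 day after sham surgery, with 1 control labelled Ahr f/+ and 1 fl/fl. The tamoxifen schedule is stated for naive and injured mice. In naive ganglia Thy1 was 0.86 ± 0.08 and Cadps -0.81 ± 0.09 (log2 fold change ± SE, n = 3 per group). They were the only 2 calls among 20476 autosomal genes (0.00977%), with edgeR adjusted p of 0.00191 and 0.00739. Over 7 alternatives in naive ganglia Cadps lost its call in 4 and Thy1 in 0. In cultured neurons the values were 1.01 ± 0.18 and -0.77 ± 0.12, and in sham ganglia, over 2 mice per genotype, 0.60 ± 0.07 and -1.0 ± 0.06. Neither passed the edgeR test there with all libraries. Of 22482 autosomal genes in neurons edgeR called 0 (0%) and DESeq2 155, while 1805 had an unadjusted p under 0.05. Of 22379 in sham ganglia 0 (0%) passed, and 1314 had an unadjusted p under 0.05. Over 7 alternatives in neurons Thy1 gained a call in 2 and Cadps in 1. Over 6 alternatives in sham ganglia, some with 1 mouse left in a group, Thy1 ran from 0.50 to 0.71 and Cadps from -1.06 to -0.94. The difference of the genotype effect between injured and naive ganglia, tested as an interaction, called 0 of 20476 autosomal genes (0%; 603 at an unadjusted p under 0.05), and its adjusted p was 1.0 for Thy1 as for Cadps.

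Genes beside Cadps and Ahr on their chromosomes were also read out. Of the 60 tested autosomal genes nearest to Cadps, 30 on each side, 0 were called, with a median log2 fold change of 0.02. Of the 60 nearest to Ahr 0 were called, with a median of 0.02. Gm48239, a gene model that lies within the span of Cadps, had a log2 fold change of -0.81 (unadjusted p = 0.01), and its counts are not separable from those of Cadps.

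The remaining differences were small or variable. The median log2 fold change over autosomal genes was -0.00, with quartiles at -0.07 and 0.07, and 49.5% of the values were positive. In 4.11% of autosomal genes every cKO library was above every control library, and in 4.62% every one was below. Intervals of the main model were narrow for expressed genes, but the model has no term for sex and they leave out its confounding with genotype. Of 17784 autosomal genes with a mean of at least 1 CPM, 17141 (96.4%) had a 95% interval within a 2-fold difference in either direction. The median half-width of the interval was 0.21 on the log2 scale. At 10 CPM or more the share was 99.2% of 11435 genes.

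**Figure D2:**
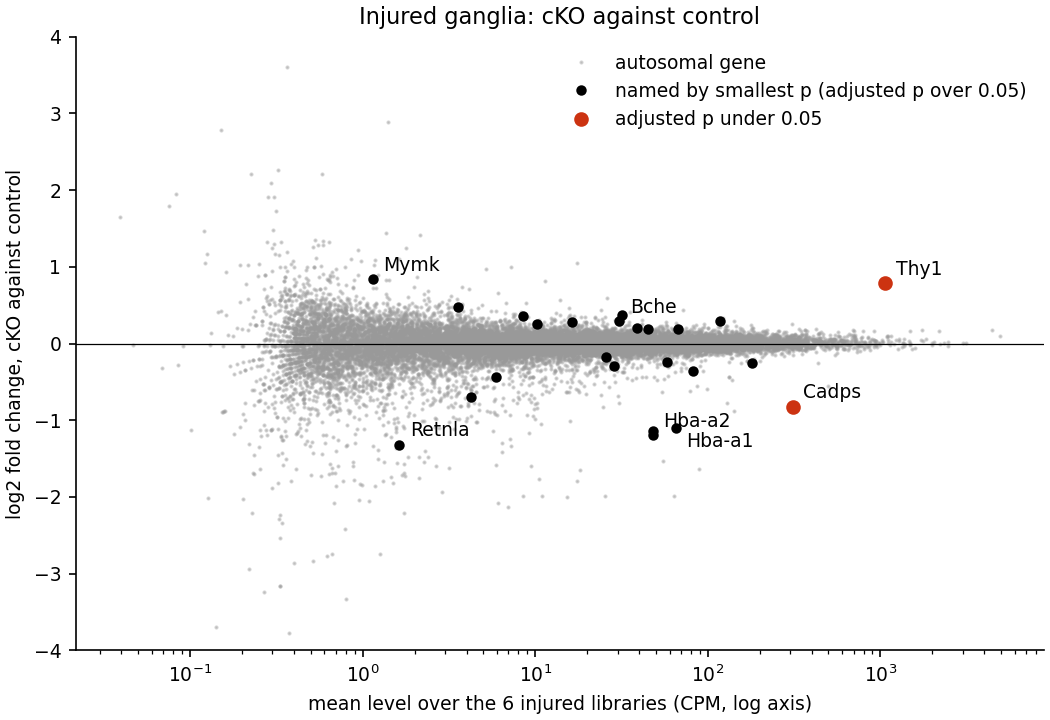
Log2 fold change of each autosomal gene in injured ganglia, cKO against control, against its mean level over the 6 libraries (CPM, log axis); red points are Thy1 and Cadps, black points the other genes named by smallest p, and 3 genes lie outside the axis limit of 4. Both red points stand clear of the other genes of their level, whose values narrow around 0.

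Outside Thy1 and Cadps, the 11 genes with the smallest p in each direction did not pass the adjusted test (edgeR adjusted p = 1.0 for each). Their groups were required not to overlap, so that this is a description of genes chosen by the comparison itself. Bche, which encodes the plasma-type cholinesterase, was the first upward. It was at 26.6, 28.8 and 27.6 CPM in control and at 35.8, 34.6 and 31.3 CPM in cKO, a log2 fold change of 0.29 ± 0.06. Mymk, a fusion protein of muscle precursors, was low throughout, at 0.764 to 0.898 CPM in control and 1.34 to 1.58 CPM in cKO (0.84 ± 0.18).

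Fabp7, a fatty acid-binding protein of satellite glia, was at 109, 103 and 104 CPM in control and 118, 131 and 139 CPM in cKO (0.30 ± 0.08). The adhesion receptor Adgrb3 was at 14.4 to 15.2 CPM against 17 to 18.5 CPM, and Plekhg1 was at 23.7 to 32.5 CPM against 33.9 to 39.2 CPM. Myadml2 (0.47), L3mbtl4 (0.36), Dpf3, a reader subunit of a chromatin remodelling complex (0.25), the synaptic adhesion gene Lrrc4c (0.21), Asrgl1 (0.19) and Mctp2 (0.19) completed the upward genes on the log2 scale.

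Among genes with lower values in cKO, the haemoglobin chains had large differences. Hba-a2 was at 74.0, 58.0 and 69.3 CPM in control and at 30.1, 42.8 and 15.4 CPM in cKO (log2 fold change -1.20 ± 0.30). Hba-a1 (-1.10 ± 0.29) and Hbb-bt (-1.14 ± 0.33) followed. Reads of these near-identical paralogs can be split between copies by the counting, so the value of a single chain is uncertain.

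Nptx2 and Tmem158 were lower by smaller amounts and with tighter groups than the haemoglobin chains. Nptx2, a neuronal pentraxin that clusters glutamate receptors, was at 212, 202 and 177 CPM in control and 171, 159 and 167 CPM in cKO (-0.25 ± 0.06). Tmem158 was at 94.6, 97.1 and 83.2 CPM against 74.1, 64.0 and 77.0 CPM (-0.35 ± 0.09). In each of them the lowest control mouse was above the highest cKO mouse, in both by less than the range within control. Ssbp4 (-0.44), the glycosyltransferase gene Eogt (-0.29), Mknk2, a kinase of the translation factor eIF4E (-0.24), Klhl18 (-0.18), the endothelial lipase gene Lipg (-0.69) and Retnla, a product of alternatively activated macrophages (-1.32, at 0.514 to 2.61 CPM), made up the rest on the log2 scale.

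The 22 genes were then read in the libraries that did not choose them. In naive ganglia 13 of 22 had the same sign as in injured ganglia, in cultured neurons 15 of the 21 tested, and in sham ganglia 8 of 22, and 0 were called by edgeR in any of the 3. Groups without overlap on the same side were found for Lrrc4c and Ssbp4 in naive ganglia, for Mymk and Myadml2 in neurons, and for Bche in sham ganglia. Over all autosomal genes every cKO library was above every control library in 6.17% and below in 5.35% in naive ganglia, in 7.56% and 7.68% in neurons, and in 18.2% and 19.3% in sham ganglia. On the opposite side, without overlap, there were 0 genes in naive ganglia, 2 in neurons and 6 in sham ganglia, where a group had 2 mice. Without the 2 libraries whose transcripts go against their labels, 0 of the 22 values moved by more than 1.5 times. With sex by transcripts as a covariate 3 did, Asrgl1 (0.11), Fabp7 (0.17) and Mknk2 (-0.12). The 22 genes were chosen from these same injured libraries for groups that did not overlap, so these counts do not measure their stability.

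**Figure D3:**
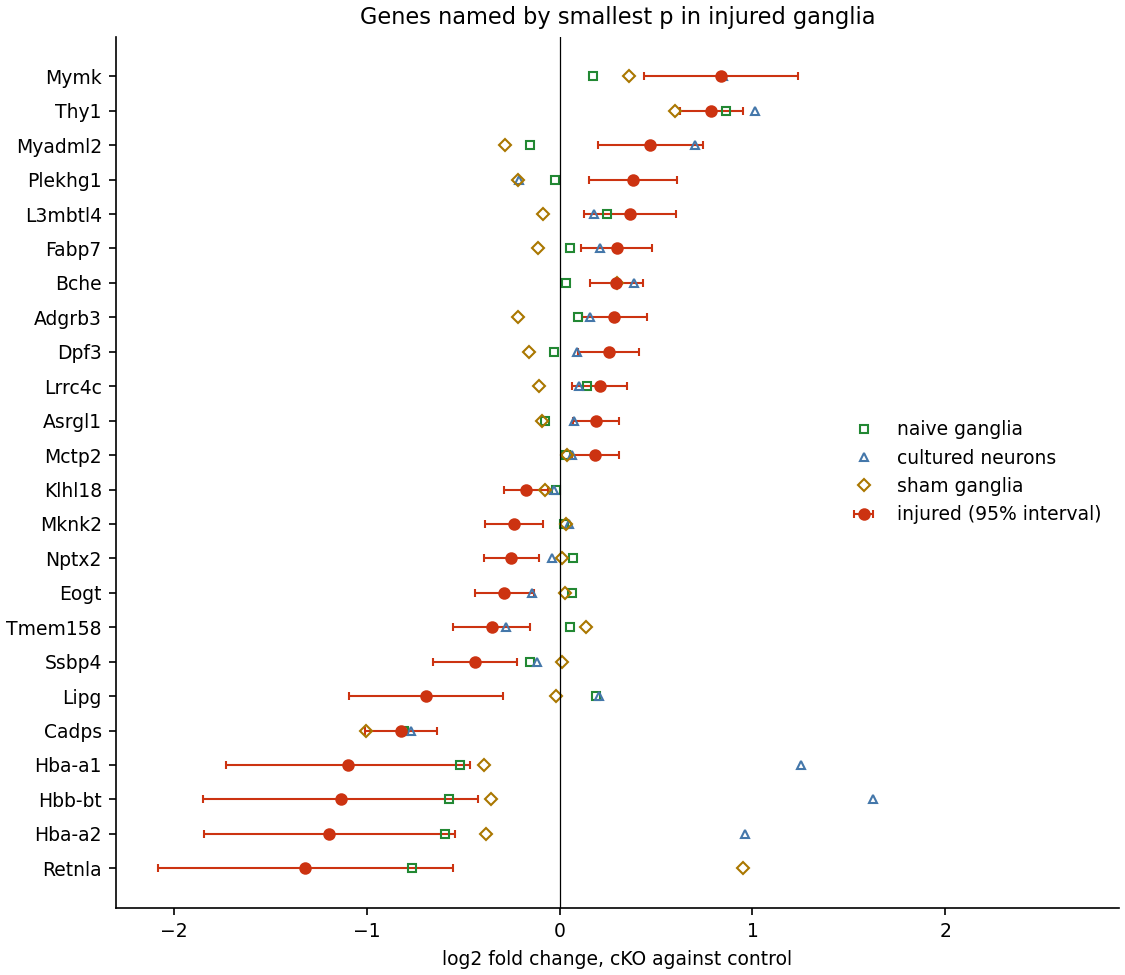
Log2 fold change, cKO against control, of Thy1, Cadps and the other 22 genes with the smallest p in injured ganglia: red points with 95% intervals are injured ganglia, and open symbols naive ganglia (squares), cultured neurons (triangles) and sham ganglia (diamonds). The symbols of Thy1 and Cadps keep to one side in all 4 settings, while those of most other genes scatter around 0.

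Known targets of AhR were examined first among the pathway lists. Of 15 listed targets 11 were tested, 0 were called in either direction, and the median log2 fold change was -0.08, against -0.00 over all autosomal genes. Values were negative for 10 of the 11, and 9 had an interval within 2-fold. Cyp1b1, the most abundant, was at 137, 136 and 144 CPM in control and 134, 136 and 124 CPM in cKO (-0.08 ± 0.08), so the groups overlapped.

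Nfe2l2, which encodes the antioxidant regulator Nrf2, was the 1 target of 11 whose groups did not overlap, on the lower side, where 4.62% of all autosomal genes lay. It was at 103, 102 and 103 CPM in control and 98.9, 98.8 and 96.4 CPM in cKO (-0.07 ± 0.06). The repressors of the pathway gave -0.10 ± 0.08 for Tiparp and 0.04 ± 0.14 for Ahrr. Nqo1, a quinone reductase, gave -0.09, the retinol acyltransferase gene Lrat -0.12, the amino acid transporter gene Slc7a5 -0.07, and the glucuronosyltransferase genes Ugt1a6a and Ugt1a6b -0.06 and -0.05. Slc7a5, Lrat and both Ugt1a6 genes share their position with other counted genes and are uncertain. The median of the list was 0.02 in naive ganglia, -0.12 in neurons and -0.08 in sham ganglia. Among 13 partners of AhR 0 were called, the median was -0.00, and the values ran from -0.12 for the coactivator gene Ep300 to 0.15 for Relb.

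The 250 bases upstream of the RefSeq start sites are shown for a classical target and a repressor with the AhR core motif, and for Cadps, the gene that fell, without it. They come from RefSeq on GRCm38.p6, read on the strand of the gene, and capitals mark GCGTG or its reverse complement CACGC.
Cyp1b1, chr17:79715062-79715311, minus strand: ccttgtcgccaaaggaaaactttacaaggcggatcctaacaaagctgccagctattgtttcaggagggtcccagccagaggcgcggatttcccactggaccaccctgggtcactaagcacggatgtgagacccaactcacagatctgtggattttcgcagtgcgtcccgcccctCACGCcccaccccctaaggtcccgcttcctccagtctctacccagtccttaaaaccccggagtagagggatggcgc
Ahrr, chr13:74292332-74292581, minus strand: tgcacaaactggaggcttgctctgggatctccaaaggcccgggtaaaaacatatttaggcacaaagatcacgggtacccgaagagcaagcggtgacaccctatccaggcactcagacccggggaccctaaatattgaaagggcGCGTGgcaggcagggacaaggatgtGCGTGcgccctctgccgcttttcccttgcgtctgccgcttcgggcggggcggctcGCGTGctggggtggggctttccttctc
Cadps, chr14:12823080-12823329, minus strand: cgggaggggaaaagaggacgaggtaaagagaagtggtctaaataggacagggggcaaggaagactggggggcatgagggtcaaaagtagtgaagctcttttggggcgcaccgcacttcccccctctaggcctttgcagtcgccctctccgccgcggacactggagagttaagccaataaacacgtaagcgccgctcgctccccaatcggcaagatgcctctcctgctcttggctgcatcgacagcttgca

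Cyp1b1 held 1 match, Ahrr 3 and Cadps 0 in these windows. Over all entries, 28.2% of 32851 promoters held GCGTG on either strand in the 250 bases before the start. Counted by gene, 6 of the 12 listed AhR targets with an entry did. Entries and genes are unlike units, so these shares are not comparable. Of 11702 autosomal genes of at least 1 CPM with an entry, 6140 had no match. Among autosomal genes of at least 1 CPM with an entry, the median log2 fold change in injured ganglia was -0.00 for 6140 genes without the motif, -0.00 for 3524 genes with 1 match and -0.00 for 2038 genes with 2 or more. A match is a description of letters and not of binding, and motifs outside the window were not searched.

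Transcription factors that mark the regeneration program had 0 calls, and their values depended on the libraries used. Of 20 tested, 0 were called, 2 had positive values, the median log2 fold change was -0.06, and all 20 had an interval within 2-fold. Atf3, the hallmark factor of axotomised neurons, was at 693, 731 and 589 CPM in control and 526, 769 and 644 CPM in cKO (-0.05 ± 0.15). Jun, its partner in AP-1, was at 403, 414 and 354 CPM against 329, 435 and 350 CPM (-0.07 ± 0.09). For both genes cKO replicate 2 was the highest and cKO replicate 1 the lowest of the 6. Without the 2 libraries whose transcripts go against their labels the median of the list was -0.10, with Atf3 at -0.28, Jun at -0.26 and Sox11 at -0.23. With sex by transcripts as a covariate the median was -0.16 and Atf3 was at -0.35, and both values rest on cKO replicate 1 alone.

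Cebpd, an acute-phase factor, was the 1 member of 20 whose groups did not overlap (4.62% of all autosomal genes lay below in this way), at 34.4, 34.5 and 31.2 CPM in control and 29.8, 26.3 and 22.0 CPM in cKO (-0.36 ± 0.15; -0.16 with sex by transcripts as a covariate), and it shares its position with another counted gene. Log2 fold changes of the other factors above 10 CPM were -0.06 for Stat3, -0.06 for Sox11, -0.05 for Smad1, -0.01 for Klf6, 0.04 for Klf7, -0.06 for Myc, -0.08 for Atf5, -0.01 for Hif1a, -0.04 for Creb1, -0.01 for Ets2, -0.05 for Rest, 0.03 for Tcf4, -0.12 for Bhlhe40, -0.24 for Egr1 and -0.30 for Klf4. Cebpb (-0.17) was lower in level, and it, Atf5 and Hif1a share their position with other counted genes. Fos gave -0.09 ± 0.33. The list's median was -0.00 in naive ganglia, -0.10 in neurons and 0.06 in sham ganglia.

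Growth-associated effectors, the structural and signalling genes downstream of this program, gave a median of -0.02 over 27 tested members with 0 called. The extremes among the 26 members of at least 1 CPM were Ecel1, a damage-induced endopeptidase (0.19 ± 0.38), and the laminin receptor gene Itga7 (-0.12 ± 0.14). Ecel1 was at 6.02, 7.61 and 4.92 CPM in control and at 3.44, 11.3 and 6.56 CPM in cKO. The effectors deviated together within the cKO group: the median deviation from the mean of the 6 libraries was -0.26 in cKO replicate 1, 0.27 in replicate 2 and -0.04 in replicate 3 on the log2 scale. The median log2 fold change accordingly turned with the libraries. It was 0.09 without cKO replicate 1, -0.19 without cKO replicate 2 and -0.23 without both libraries whose transcripts go against their labels. With sex by transcripts as a covariate it was -0.30, and this value rests on cKO replicate 1, the low library of its group.

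Neuropeptides and secreted neuronal factors were tested for 12 genes, 0 of which were called, with a median of -0.02. Nts, neurotensin, had groups that did not overlap, at 25.3, 28.3 and 23.9 CPM in control and 14.5, 22.0 and 21.1 CPM in cKO (-0.43 ± 0.17). Over the alternative fits Nts ran from -0.83 (sex by transcripts as a covariate, on cKO replicate 1 alone) to -0.27 (without cKO replicate 1). Npy was at 6.95 to 8.92 CPM against 5.52 to 6.95 CPM (-0.27 ± 0.32), so that its groups met at 6.95 CPM. Both cases make up the 2 of 12 members with all cKO values below control, against 4.62% of all autosomal genes.

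Galanin, which neurons induce after axotomy, was at 30.6, 33.3 and 23.0 CPM in control and 20.9, 36.6 and 26.4 CPM in cKO (Gal, -0.05 ± 0.18). Without the 2 libraries whose transcripts go against their labels Gal was at -0.43 and not called. With sex by transcripts as a covariate it was at -0.47, on cKO replicate 1 alone, its lowest library. The nociceptor peptides differed little, with Calca at 0.00 ± 0.05, Calcb at 0.07 ± 0.09 and Tac1 at 0.05 ± 0.08. Adcyap1 gave 0.15, Bdnf -0.05, Penk 0.36, Nppb -0.21 and Sst -0.17, with overlapping groups. The interval of Calca, -0.11 to 0.12, was narrow.

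Among 36 tested genes of the exocytosis machinery Cadps was the 1 call, where 0.00977% of all autosomal genes were called, and 35 had an interval within 2-fold. Without overlap, 3 members lay above control and 1 below, against 4.11% and 4.62% of all autosomal genes. The median was 0.03. The highest value was that of the calcium sensor gene Doc2b (0.15 ± 0.17). Cadps2, the paralog of Cadps, gave -0.07, and the SNARE gene Snap25 0.10. The remaining members lay between -0.09 and 0.15, so that Cadps stood alone at -0.82.

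Stress and metabolic lists had 0 calls. The integrated stress response (23 tested) had a median of 0.01, between Ddit4 (-0.36 ± 0.23), an inhibitor of mTOR, and the cystine transporter gene Slc7a11 (0.41 ± 0.58), which was also the highest of the Nrf2 antioxidant response (19 tested, median -0.07, lowest Mgst1 at -0.13). Chaperones of the unfolded protein response (21 tested) ran from Hspa1a (-0.14) to Hsph1 (0.09) with a median of -0.04. The hypoxia and glycolysis list (19 tested, median -0.00) ran from Adm (-0.35) to Hk2 (0.12), and cholesterol synthesis (22 tested, median -0.02) from Mvk (-0.12) to Idi1 (0.09). Adm and Hspa1a share their position with other counted genes. Slc7a11 was at 1.07 without the 2 libraries whose transcripts go against their labels, and at -0.25 without cKO replicate 3.

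The circadian list had a median of -0.08 over 19 tested members with 0 called. Dbp, an output factor of the clock, was at 16.6, 17.6 and 16.1 CPM in control and 15.6, 12.8 and 11.3 CPM in cKO (-0.35 ± 0.13; -0.11 with sex by transcripts as a covariate), and shares its position with another counted gene. Npas2 was the highest at 0.11. The list's median deviation was 0.07, 0.08 and 0.05 in the control libraries and 0.00, -0.04 and -0.04 in the cKO libraries, so that the groups did not overlap. Among the 26 pathway lists the deviations of 2 others also separated, TGF-beta, BMP and activin signalling on the lower and axon guidance on the upper side, as did those of the neighbours of Cadps, on the upper side. The median of the circadian list was 0.03 in naive ganglia, -0.10 in neurons and 0.02 in sham ganglia.

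Ribosomal protein genes had a median of -0.07 over 72 tested members, 0 of them called, with 13 whose cKO values were all below control and 0 all above, where the shares of all autosomal genes were 4.62% and 4.11%. Rps29 was the lowest (-0.44 ± 0.18) and Rpl38 the highest (0.18). Many copies of these genes exist in the genome, so that their counts are uncertain. Subunits and assembly factors of oxidative phosphorylation (86 tested, 0 called) had a median of -0.04 and 8 members below and 3 above without overlap (the same 4.62% and 4.11% apply), from Ndufaf8 (-0.24) to Atp5l (0.18) among those of at least 1 CPM. Rps29, Rpl38 and Atp5l were near 1 CPM in injured ganglia, and Atp5l shares its position with another counted gene. In sham ganglia they were at 119 to 139, 78.6 to 92.0 and 56.1 to 68.9 CPM. These extremes therefore rest on low counts in the injured libraries, and the cause was not tested.

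Ion channels were described next. Of 37 tested potassium channel genes 29 had positive values, 0 were called, and the median was 0.08 (0.14 without the 2 libraries whose transcripts go against their labels, and 0.02 without control replicate 1). The 4 members without overlap on the upper side compare with 4.11% of all autosomal genes. Kcnd2, which carries A-type current, was at 1.72, 2.05 and 2.13 CPM in control and 3.26, 2.57 and 2.85 CPM in cKO (0.56 ± 0.17). The lowest was Kcnn2 (-0.07). The median deviation of the list was -0.14, -0.01 and 0.03 in the control libraries and 0.07, -0.01 and 0.05 in the cKO libraries, so that the groups overlapped. The list's median was 0.10 in naive ganglia, 0.23 in neurons and -0.06 in sham ganglia.

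Sodium channels (14 tested, 0 called) had a median of 0.00, with Scn3a at 0.25 and the nociceptor channel gene Scn11a at -0.07. Calcium channels (16 tested, 0 called) had a median of 0.03, with Cacna1e at 0.30 and Cacna1g at -0.30 (-0.00 without control replicate 3). Transduction channels of the TRP, Piezo, P2X and acid-sensing families (22 tested, 0 called) had a median of 0.02, with P2rx2 at 0.30 and Trpa1 at -0.11. Growth factor receptors (14 tested, 0 called) had a median of 0.00, from Gfra2 (-0.13) to Ntrk3 (0.26) among members of at least 1 CPM.

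Interferon-stimulated genes had positive values in 19 of 24 tested members, 0 called, with a median of 0.07. Ifit3 was at 36.8, 25.7 and 28.7 CPM in control and 46.6, 37.2 and 37.7 CPM in cKO (0.41 ± 0.20), and Oas2 was the lowest (-0.17). The list followed single mice: the median deviation was 0.23, -0.18 and -0.14 in control and 0.29, -0.04 and -0.04 in cKO, with 1 high library in each group. Without control replicate 1 the median log2 fold change was 0.31, and without cKO replicate 1 it was -0.02. With sex by transcripts as a covariate it was 0.34, on cKO replicate 1 alone, the high library of its group. The median was 0.01 in naive ganglia, 0.36 in neurons and -0.47 in sham ganglia.

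Chemokines and cytokines (17 tested, 0 called, median -0.00) included Cxcl10, an interferon-induced chemokine, at 0.764, 0.840 and 0.662 CPM in control and 1.63, 1.18 and 1.98 CPM in cKO (1.08 ± 0.34). It shares its position with another counted gene. The interleukin 1 receptor antagonist gene Il1rn was the lowest (-0.58 ± 0.41; -0.25 with sex by transcripts as a covariate). In gp130 cytokine signalling (23 tested, 0 called, median -0.05) Il6ra gave -0.45 and Lif 0.11.

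Axon guidance genes (35 tested, 0 called) had a median of 0.04, from Dcc (-0.66 ± 0.33) to Plxna2 (0.23). Over the alternative fits Dcc ran from -1.0 (without cKO replicate 1) to -0.17 (sex by transcripts as a covariate) and Plxna2 from 0.08 to 0.36. TGF-beta, BMP and activin signalling (31 tested, 0 called) had a median of -0.05, with Bmp2 at -0.48 and Bmpr1b at 0.24. DNA methylation genes (14 tested, 0 called, median -0.03) ran from Uhrf1 (-0.40) to Tet1 (0.13) at 1 CPM or more. Cell cycle genes (23 tested, 0 called) had a median of -0.07 and 4 members below without overlap, against 4.62% of all autosomal genes. The proliferation marker gene Mki67 was at 11.8, 6.30 and 9.92 CPM in control and 5.66, 4.83 and 4.23 CPM in cKO (-0.93 ± 0.62), and Plk1 was the highest (0.11).

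**Figure D4:**
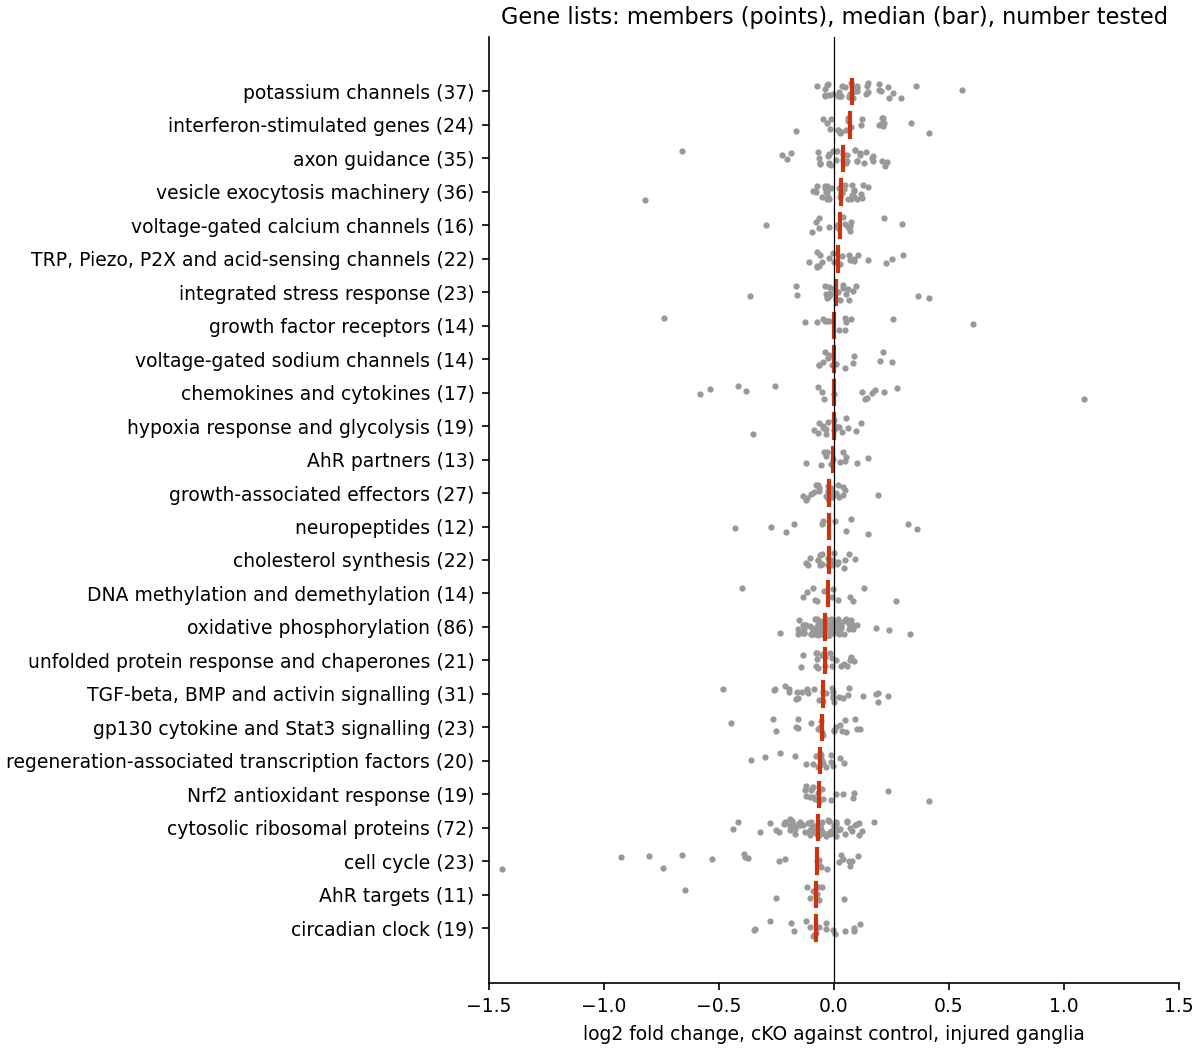
Log2 fold change of the autosomal members of each gene list in injured ganglia, cKO against control (points), with the median of the list (red bar) and the number of members tested in brackets; 1 member lies outside the axis limit of 1.5. With all 6 libraries the medians lie between -0.08 and 0.08, against -0.23 to 0.14 without the 2 libraries whose transcripts go against their labels, and Cadps at -0.82 stands apart in the exocytosis list.

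Marker genes of cell types were summed per library. In such bulk samples fewer cells of a type and less RNA per cell cannot be told apart. Red blood cell markers were the 1 of 16 types whose groups did not overlap, at 467, 379 and 429 CPM in control and 231, 293 and 108 CPM in cKO (exact two-sided permutation p = 0.1, the smallest that 3 against 3 allow, 0.8 after Benjamini-Hochberg adjustment over 16 types, and 0.8 to 1 for the other types). All 7 red blood cell markers were lower. The log2 ratio of the group means was -1.01, and -1.32 without the 2 libraries whose transcripts go against their labels. The haemoglobin genes named above belong to this list, and its part in their differences was not tested.

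Neutrophil markers were at 274, 106 and 443 CPM in control and 135, 67.9 and 59.9 CPM in cKO, with all 7 members lower and overlapping groups (exact p = 0.2). Macrophage markers were at 466, 350 and 531 CPM against 392, 291 and 358 CPM, with all 12 members lower (exact p = 0.3). Without the same 2 libraries the log2 ratio went from -1.65 to -0.97 for neutrophils and from -0.37 to -0.12 for macrophages. Retnla, Il1rn, Cebpd and Mki67 had lower values in the same libraries, and the part of immune cells in them was not tested.

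Neuronal and glial sums overlapped between groups. Sensory neuron markers were at 12907 to 13713 CPM in control and 13095 to 15567 CPM in cKO (exact p = 0.4). Markers of large-diameter neurons were at 2926.5, 3286 and 3477 CPM against 3462, 4025 and 3409 CPM, with all 9 members higher (exact p = 0.3). The sums of satellite glia (exact p = 0.6), myelinating Schwann cells (exact p = 0.9) and endothelium (exact p = 0.7) did not separate either. The median deviation of the satellite glia markers, to which Fabp7 belongs, did: it was 0.01, -0.09 and -0.05 in the control libraries and 0.02, 0.06 and 0.08 in the cKO libraries. Lymphocyte markers stayed below 10 CPM in sum in every library.

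**Figure D5:**
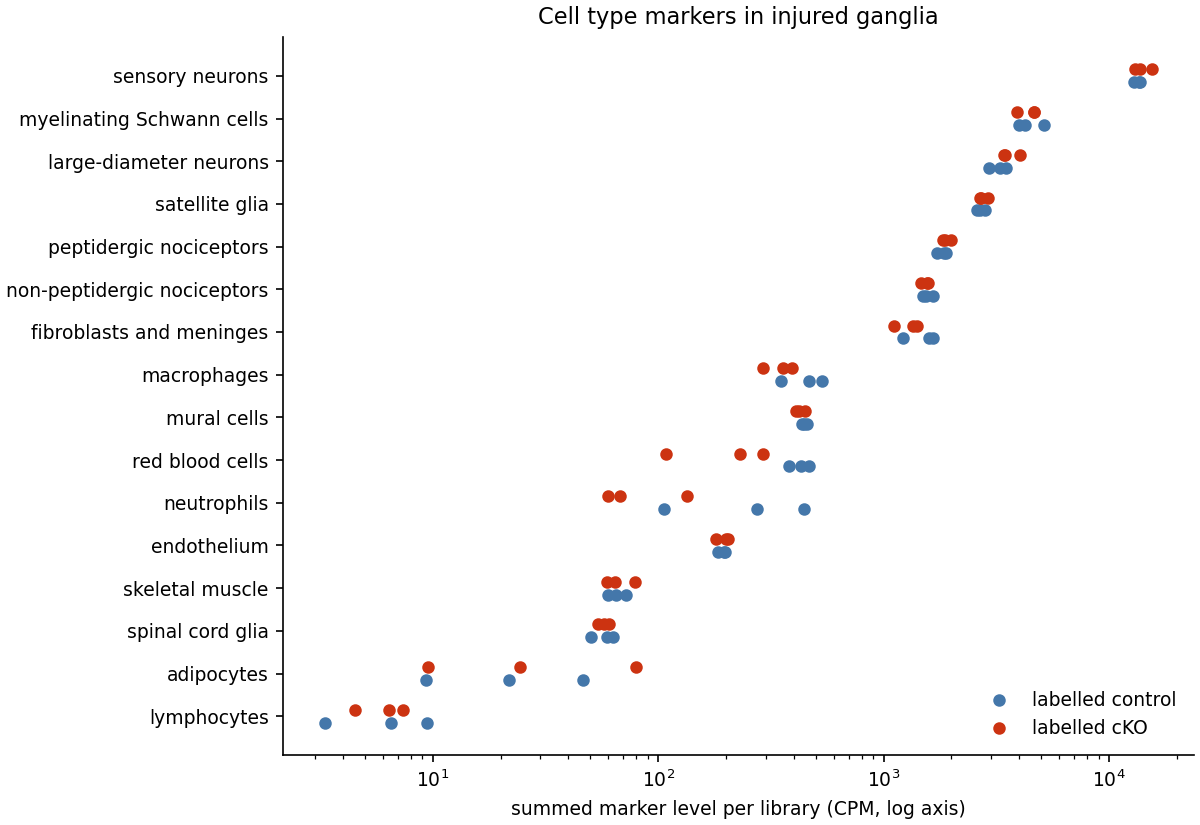
Summed level of the markers of each cell type (CPM, log axis) in each of the 3 control (blue) and 3 cKO (red) injured libraries. Red blood cell markers lie lower in every cKO library (108 to 293 CPM) than in every control library (379 to 467 CPM), and the points of the other types overlap.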

How the data were processed

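RNA of 26 samples was sequenced from TruSeq Stranded mRNA libraries, per the labels' protocols. The authors deposited counts per gene, whole numbers without normalization; the submitters' processing notes name Trim Galore, HISAT2, featureCounts and mm10, without versions or strand setting. FPKM tables were not used here. Of 55401 genes 99.53% were matched to a symbol in GENCODE M21. One edgeR model took the 12 libraries of naive and injured ganglia (version 4.0.16, R 4.3.3): filterByExpr (minimum count 10, total 15), TMM, quasi-likelihood test without covariates, Benjamini-Hochberg adjustment over all 21261 genes, called under 0.05. Neurons (6 libraries) and sham ganglia (counts summed over both sides of each of 4 mice) were fitted alone. Named genes are Ahr, Thy1 and Cadps, the 12 autosomal genes of smallest p per direction (mean at least 1 CPM, no overlap of groups, under 50% of counts overlapped by another gene, no model name), calls, extremes of each list, and members of 3 lists. DESeq2 1.42.0 was an alternative. The fit was tested on simulated data. Members and gene lists were chosen with earlier results of these data known.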

Additional observations from a re-analysis of the deposited data

Results flagged for a closer look

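Of 326 comparisons of 109 named genes between injured ganglia and another setting, 14 had groups that did not overlap in either setting and lay on opposite sides. Over all autosomal genes the share of such comparisons was 0.984%. The named genes are not comparable with that share, since 22 of them were required not to overlap in injured ganglia. None of these differences was tested, since the libraries come from tables fitted separately. The log2 fold change in injured ganglia minus that in sham ganglia was 2.40 for Cxcl10, 1.39 for Ifit3, 0.592 for Plekhg1, 0.497 for Adgrb3, 0.412 for Dpf3, 0.409 for Fabp7 and 0.316 for Lrrc4c. It was -0.573 for Dbp, -1.27 for Il1rn, -1.58 for Mki67 and -2.27 for Retnla. Injured ganglia minus cultured neurons gave -2.16 for Hba-a2, -1.09 for Il1rn and 0.591 for Plekhg1.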

How the results depend on the processing

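With the replicate number as a replicate block 2 autosomal genes were called in injured ganglia (Thy1 0.79, Cadps -0.82) and 1 in naive ganglia, Thy1, with Cadps at -0.80 (edgeR adjusted p = 0.0584). The numbers are not stated to pair mice, and the deviations of same-numbered injured libraries correlated at 0.063, 0.36 and 0.11, with control replicate 3 closest to cKO replicate 1. RLE factors, DESeq2, no filter, at least 10 counts in every library, the 6 injured libraries alone, labelled sex as a covariate, adjustment over autosomal genes and an adjusted p under 0.1 each gave 2 calls in injured ganglia. Leaving out both libraries whose transcripts go against the labelled sex, with 2 mice left per group, gave 0 calls. It also gave 0 called members of the gene lists, against 1 with all 6 libraries. Cadps was then at -0.82 and Thy1 at 0.74. Sex by transcripts as a covariate, which compares cKO replicate 1 alone with the controls, put Cadps at -0.79 and Thy1 at 0.66. Leaving out 1 injured library gave 0 to 4 calls, with 0 to 1 list members, Thy1 at 0.73 to 0.84 and Cadps at -0.87 to -0.76. The interaction gave 0 to 2 calls when 1 library was left out, 2 without injured cKO replicate 1 (Rsrp1 and Zbtb16). Naive ganglia gave 1 to 2, and Thy1 alone was called when naive control library 3 or either of the naive cKO libraries 1 and 2 was dropped. Cultured neurons gave 155 calls with DESeq2 and 0 to 12 without 1 library (12 without control replicate 1, 6 without control replicate 3); sham ganglia gave 1 on the other side alone and 0 to 5 without 1 mouse (5 without cKO mouse 1, 2 without control mouse 2). The cause of these shifts was not tested.

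Among the other named genes, none of them called, the sign of the log2 fold change turned in these cases. Leaving out 1 library gave Adcyap1 (-0.0104 to 0.25), Adm (-0.53 to 0.0455), Ahrr (-0.0241 to 0.16), Atf3 (-0.20 to 0.0716), Bdnf (-0.0893 to 0.0340), Calca (-0.0241 to 0.0370), Calcb (-0.0319 to 0.15), Creb1 (-0.19 to 0.0540), Doc2b (-0.0184 to 0.28), Ecel1 (-0.30 to 0.52), Ets2 (-0.0774 to 0.0621), Gal (-0.29 to 0.12), Hif1a (-0.0792 to 0.0553), Hk2 (-0.0793 to 0.30), Idi1 (-0.0352 to 0.23), Itga7 (-0.31 to 0.0117), Jun (-0.20 to 0.00649), Kcnn2 (-0.13 to 0.0359), Klf6 (-0.10 to 0.0741), Lif (-0.25 to 0.40), Myc (-0.16 to 0.00477), Npas2 (-0.0378 to 0.32), Oas2 (-0.33 to 0.0750), Rest (-0.16 to 0.0637), Scn11a (-0.10 to 0.00263), Slc7a11 (-0.25 to 0.77), Smad1 (-0.11 to 0.0368), Sox11 (-0.15 to 0.0401), Tac1 (-0.00164 to 0.14), Tcf4 (-0.0112 to 0.0779), Tet1 (-0.00283 to 0.25), Ugt1a6a (-0.13 to 0.0583), Ugt1a6b (-0.11 to 0.0708) and Uhrf1 (-0.64 to 0.0389). With sex by transcripts as a covariate the values were Adcyap1 -0.0985, Bdnf 0.00744, Creb1 0.22, Ddit4 0.0353, Doc2b -0.0264, Ecel1 -0.85, Ep300 0.0678, Fos 0.0483, Gfra2 0.00470, Hif1a 0.10, Hk2 -0.34, Il6ra 0.00120, Kcnn2 0.0323, Klf7 -0.0394, Lrat 0.00982, Mgst1 0.16, Npas2 -0.0359, Oas2 0.11, Penk -0.13, Relb -0.0726, Sst 0.00313 and Trpa1 0.00235. Without both libraries whose transcripts go against the labelled sex they were Adcyap1 -0.0683, Adm 0.12, Bhlhe40 0.0194, Calca -0.0197, Creb1 0.0143, Ecel1 -0.44, Fos 0.0299, Kcnn2 0.12, Klf7 -0.0123, Mgst1 0.00695, Oas2 0.27 and Rest 0.0415. Klf6 was at 0.00125 with RLE factors, 0.00128 with DESeq2 and 0.00163 with no filter. A further 31 named genes kept their sign but moved by over 1.5 times in at least 1 alternative: Ahr (0.0305 to 0.0921), Asrgl1 (0.11 to 0.23), Atf5 (-0.15 to -0.0483), Atp5l (0.0431 to 0.38), Bmpr1b (0.14 to 0.43), Cacna1e (0.11 to 0.41), Cacna1g (-0.62 to -0.00225), Cebpb (-0.24 to -0.0196), Cebpd (-0.47 to -0.16), Cyp1b1 (-0.10 to -0.0357), Dbp (-0.49 to -0.11), Dcc (-1.0 to -0.17), Egr1 (-0.39 to -0.15), Fabp7 (0.17 to 0.35), Hsph1 (0.0312 to 0.14), Il1rn (-0.78 to -0.25), Klf4 (-0.47 to -0.12), Mknk2 (-0.30 to -0.12), Mvk (-0.20 to -0.0704), Nppb (-0.34 to -0.0284), Npy (-0.50 to -0.17), Nqo1 (-0.12 to -0.0491), Ntrk3 (0.11 to 0.35), Nts (-0.83 to -0.27), Plk1 (0.0535 to 0.16), Plxna2 (0.0796 to 0.36), Rpl38 (0.11 to 0.29), Scn3a (0.18 to 0.39), Slc7a5 (-0.21 to -0.0144), Stat3 (-0.14 to -0.0143) and Tiparp (-0.16 to -0.00384).

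Of 420 medians of gene and position lists under alternatives, 36 moved by more than the SD between libraries, and of 128 marker sums 2 moved, both without the 2 libraries, an alternative that for the marker sums was chosen after seeing the data. By the rule used for genes, a move of over 1.5 times in at least 1 alternative, 28 of 28 list medians and 15 of 16 marker sums moved, 22 and 12 of them without the 2 libraries. Of the 107 named genes other than Thy1 and Cadps, 78 moved by over 1.5 times in at least 1 alternative; the count was 65 with sex by transcripts as a covariate and 49 without the 2 libraries. With 3 mice per group, differences under about 0.21 on the log2 scale lie within the median 95% interval.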
